A study of Drosophila melanogaster with 8 samples.

Results

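Open chromatin was described at 5 Drosophila genes for transcriptional regulators that are known from, or studied beside, the larval salivary gland: fkh, sage, CrebA, Xbp1 and tna. A region belonged to a gene if its centre, and a peak if its summit, lay in the gene's RefSeq body or within 10 kb of it, on genome build dm6. Under this rule 36 of the 13008 regions in the authors' comparison tables lay at the genes: 3 at fkh, 3 at sage, 13 at CrebA, 6 at Xbp1 and 11 at tna. The same rule took 48 of 29283 peaks listed for wing, 48 of 26754 for leg, 63 of 16840 for salivary gland and 30 of 18464 for EcR-RNAi wing. A second gene often lay within 10 kb, and 13 of the 36 regions had their centre in its body.

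The assay was FAIRE-seq, which sequences the DNA that stays free of crosslinked nucleosomes and so reads out open chromatin. The 8 libraries came from female wandering larvae of the third instar at -6 h relative to puparium formation, raised at 25 C, with at least 40 tissues dissected for each library. Each of the 4 groups had 2 libraries. The labels give the genotype +/+ for 3 wild-type (WT) groups, which are the imaginal discs of the wing, those of the leg, and the salivary glands. The EcR-RNAi wing discs were yw/yw and carried Vg-GAL4 with UAS-Flp and the flip-out cassette Tub>>CD2>>GAL4, the reporter UAS-GFP, and the hairpin UAS-EcR-RNAi[104]. The hairpin, directed at the ecdysone receptor EcR, is thereby expressed in cells in which vg-GAL4 has been active and in their descendants. WT wing discs lack the driver, the GFP and the yw background as well as the hairpin. The names of the gland peaks carry another prefix (EcRmimic) and a fragment size tag, and those of the WT disc peaks carry OR, so stock and size selection cannot be told apart from tissue in the gland comparisons. The labels do not say whether both libraries of a group derive from separate animals or crosses; each p-value then reflects the spread of these libraries alone, and that spread may be technical.

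The larval salivary gland is a secretory organ with polytene nuclei that makes the glue proteins by which the animal fixes itself before it pupates. Fkh, a FoxA-type factor, is required to form the gland and keeps its glue genes active, and Sage, a basic helix-loop-helix factor made almost only in the gland, acts with it. CrebA, a bZIP factor, raises the genes of the secretory pathway in secretory cells, and Xbp1, another bZIP factor, becomes active through Ire1 splicing in the unfolded protein response. tna (tonalli) encodes a protein with an SP-RING zinc finger that interacts genetically with the Brahma chromatin remodelling complex. Ecdysone, acting through EcR, ends fkh activity in the gland around pupariation.

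In the authors' deposited tables, a region counted as called at an adjusted p (DESeq2, as deposited) under 0.05 together with a log2 fold change of 1 or more in either direction, and every level given for a group is a normalized count per region. No table holds a value per library. The group levels were therefore derived from the deposited mean count and folds, and they carry no spread of their own, which is given by the SE of each fold. Levels are compared between groups at 1 region and not between regions of different width. In such bulk material, fewer open nuclei and less openness per nucleus cannot be told apart, and the copy number of polytene DNA was not measured.

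Regions at fkh and sage that differed between tissues were higher in gland, those at CrebA and Xbp1 went both ways, and most of those at tna were higher in the discs. In the authors' deposited table of wing against gland, 12 of the 36 regions were higher in gland (33.3%, against 12.7 percent of all tested regions) and 6 were higher in wing (16.7%, against 21.1 percent). Against leg, 13 were higher in gland (36.1%, against 13.3 percent) and 6 higher in leg (16.7%, against 22.6 percent). The same 12 regions were higher in gland than in both discs, which 1424 of all 13008 regions were (10.9%), and the same 6 were higher in both discs, which 16.4% of all regions were. Both comparisons use the same gland libraries. The median log2 fold of gland over wing in the authors' deposited table was 0.53 over the 36 regions and -0.18 over all regions, and that of gland over leg was 0.43 and -0.17. Over the 5195 regions within 500 bp of a gene end both medians were 0.31, and over all other regions both were -0.50. By gene, regions higher in gland than wing were 2 of 3 at fkh, 2 of 3 at sage, 5 of 13 at CrebA, 2 of 6 at Xbp1 and 1 of 11 at tna. Regions higher in wing were 2 at CrebA, 1 at Xbp1 and 3 at tna, with none at fkh and sage. After centring on the table's median fold (0.18, wing over gland), the wing comparison had 15 regions higher in gland and 4 higher in wing. Centring on regions within 500 bp of gene ends instead gave 10 higher in gland and 6 higher in wing. Against leg that centring gave 10 higher in gland and 7 higher in leg. The shares of all regions given above are without centring. Those after centring are not given, so the centred counts show no excess or lack at the genes. The counts without centring depended on how regions were assigned. Of the 23 regions left without those in another gene's body, 4 were higher in gland than wing (17.4%) and 5 higher in wing (21.7%), and 5 were higher in gland than leg and 5 in leg. Of the 17 regions in the gene bodies, 3 were higher in gland than wing and 3 in wing, with 4 and 3 against leg. Of the 11 regions whose nearest gene end was that of one of the 5 genes, 2 were higher in gland than wing and 1 in wing, with 3 and 1 against leg. By adjusted p alone, 18 of the 36 were higher in gland than wing (50%, against 28.1 percent) and 7 higher in wing (19.4%, against 40.5 percent). Against leg they were 17 (47.2%, against 27.9 percent) and 9 (25%, against 40.5 percent).

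**Figure D1:**
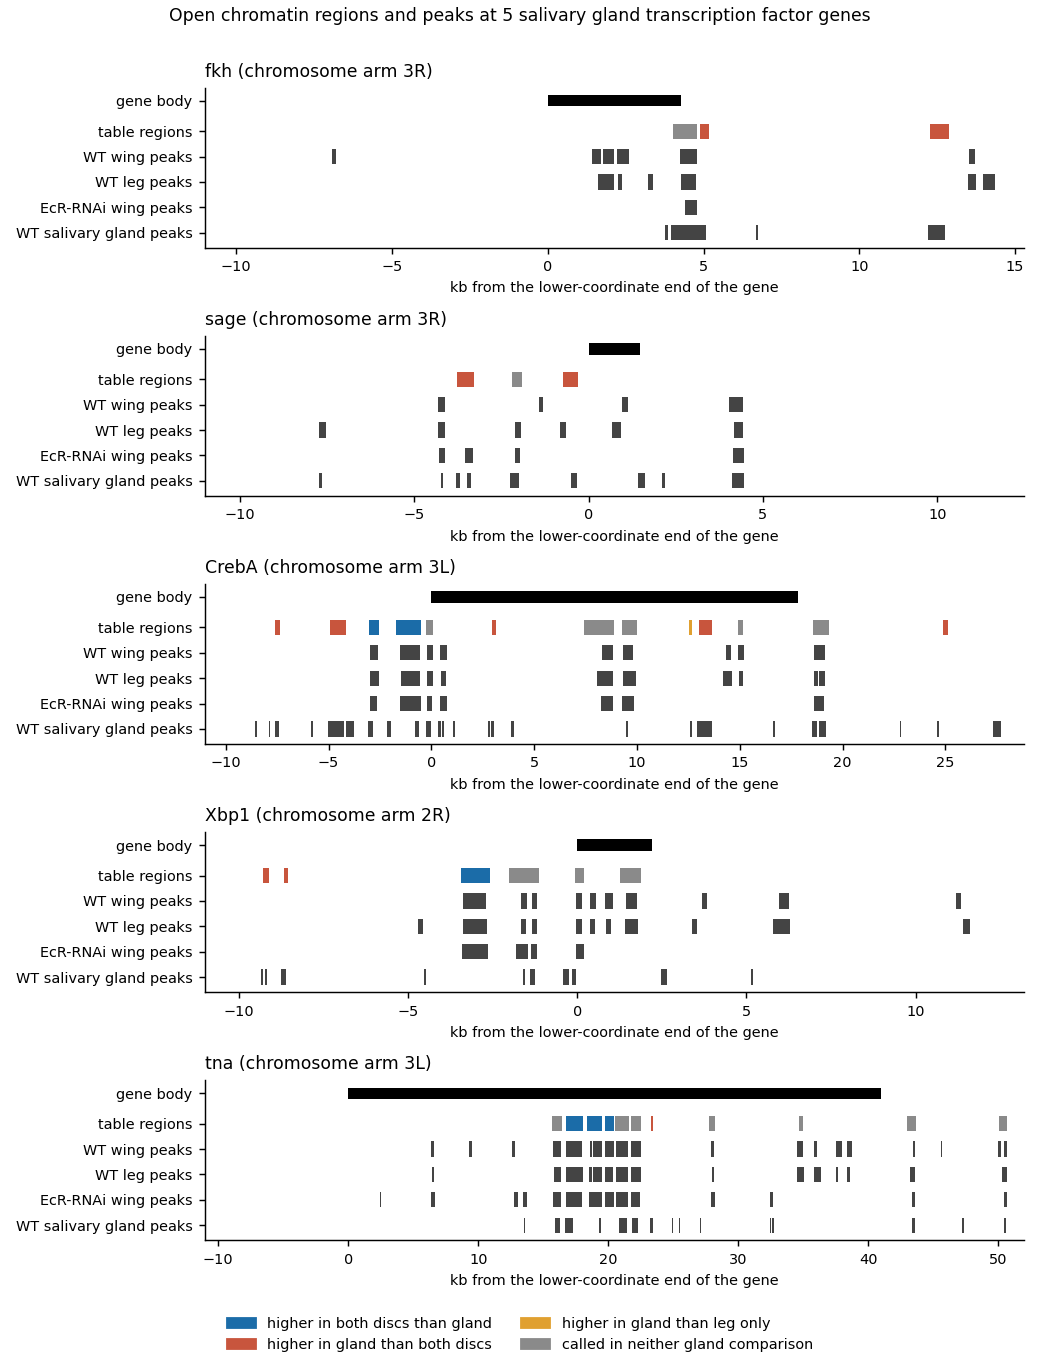
Map of each gene, with kb from its lower-coordinate end on the x axis; rows from the top are the gene body, the table regions coloured by class, and the peaks of WT wing, WT leg, EcR-RNAi wing and salivary gland. The gland-higher regions lie outside the bodies of fkh, sage and Xbp1, and the 3 disc-higher regions of tna lie side by side within its body.

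fkh (gene 43383, locus tag Dmel_CG10002, chromosome 3R, 28580976 to 28585264) had all 3 of its regions centred beyond its higher-coordinate end. The region that spans this end, 3R:28585005-28585761, had a level of 260 in wing, 320 in leg, 303 in gland and 144 in EcR-RNAi wing. Gland lay between the discs there, and the authors' deposited tables gave a log2 fold of gland over wing of 0.22 (SE 0.18, adjusted p = 0.28) and of leg over gland of 0.08 (SE 0.19, adjusted p = 0.726). Just outside it, with its centre 0.75 kb from the end, 3R:28585868-28586159 had a level of 28.0 in wing, 27.3 in leg, 67.2 in gland and 28.2 in EcR-RNAi wing. Gland stood above 3 disc groups of like level, by a log2 fold of 1.26 over wing (SE 0.31, adjusted p = 2.24e-04) and 1.30 over leg (SE 0.32, adjusted p = 2.87e-04) in the authors' deposited tables. Both calls ended when folds were centred on regions within 500 bp of gene ends. The region 3R:28593233-28593842, centred 8.27 kb beyond the end in the body of lncRNA:CR43440, had 41.9 in wing, 58.2 in leg, 192 in gland and 45.7 in EcR-RNAi wing. It was higher in gland by 2.19 over wing (SE 0.32, adjusted p = 8.18e-11) and by 1.72 over leg (SE 0.32, adjusted p = 5.18e-07) in the authors' deposited tables. The gland peak over both regions near the fkh end was a single one, 3R:28584935-28586044. The gland peak list held another at the far region with a fold enrichment of 7.69, above 98.4% of its list by the authors' value, and no wing or leg peak overlapped it. A peak at the fkh end was listed in all 4 groups, with the authors' fold enrichment at 8.77 in wing, 11.1 in leg, 7.39 in gland and 4.86 in EcR-RNAi wing.

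sage (gene 41105, Dmel_CG12952, 3R, 9262654 to 9264142) is a short gene with no table region in its body and 3 below its lower-coordinate end. The nearest, 3R:9261933-9262354, in the body of ATP6AP2, had a level of 37.2 in wing, 42.7 in leg, 108 in gland and 32.8 in EcR-RNAi wing. Gland was highest, by a log2 fold of 1.54 over wing (SE 0.28, adjusted p = 4.18e-07) and 1.34 over leg (SE 0.29, adjusted p = 2.13e-05) in the authors' deposited tables. The middle region, 3R:9260466-9260749, had 43.9 in wing, 62.8 in leg, 80.6 in gland and 60.3 in EcR-RNAi wing. By the authors' deposited tables it was higher in gland than wing by 0.87 (SE 0.31, adjusted p = 0.0101), below the fold threshold, and its fold over leg of 0.36 (SE 0.31) had an adjusted p of 0.312. The farthest, 3R:9258866-9259374, in the body of Ibf1, had 50.3 in wing, 53.8 in leg, 110 in gland and 95.5 in EcR-RNAi wing. It was higher in gland by 1.13 over wing (SE 0.29, adjusted p = 2.42e-04) and 1.03 over leg (SE 0.29, adjusted p = 0.00115) in the authors' deposited tables, and its EcR-RNAi wing level was close to that of gland. These calls also ended under centring on regions near gene ends. The strongest gland peaks near sage were not covered by the tables. A gland peak at 3R:9264080-9264259, with its summit 22 bp from the higher-coordinate end of sage, had an authors' fold enrichment of 6.77 (above 95.1% of the gland list), and no peak of wing, leg or EcR-RNAi wing overlapped it. The authors' fold enrichment of the gland peak at 3R:9266754-9267101 was 7.11, and peaks of all other groups overlapped it.

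CrebA (gene 39682, Dmel_CG7450, 3L, 15535395 to 15553214) had regions of both kinds. Within its body the largest fold of the whole set was at 3L:15538347-15538564, with a level of 10.4 in wing, 14.6 in leg, 67.3 in gland and 16.6 in EcR-RNAi wing. The authors' deposited tables gave 2.69 over wing (SE 0.39, adjusted p = 1.04e-09) and 2.203 over leg (SE 0.39, adjusted p = 7.33e-07). This region has few counts, with a mean of 27.2, below the lower quartile of all regions (70.8). Also in the body, 3L:15548419-15549044 had 39.1 in wing, 42.3 in leg, 195 in gland and 53.0 in EcR-RNAi wing, higher in gland by 2.32 over wing (SE 0.44, adjusted p = 1.30e-06) and 2.203 over leg (SE 0.44, adjusted p = 5.74e-06) in the authors' deposited tables. Its SE was wide, 1.78 times the median SE at similar counts. Outside the body 3 more regions were higher in gland than in both discs. The first, 3L:15527805-15528023 in CG42728, was higher in gland by 2.09 over wing (SE 0.37, adjusted p = 2.36e-07) and 2.29 over leg (SE 0.39, adjusted p = 1.34e-07) in the authors' deposited tables. At 3L:15530460-15531231, in CG43248, the authors' deposited tables gave 1.83 over wing (SE 0.45, adjusted p = 2.28e-04) and 1.77 over leg (SE 0.46, adjusted p = 4.13e-04), with an SE 1.97 times the median SE at similar counts. At 3L:15560253-15560531, in AGO2, the gland was higher by 1.46 over wing (SE 0.30, adjusted p = 7.60e-06) and 1.62 over leg (SE 0.32, adjusted p = 3.73e-06) in the authors' deposited tables.

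Near the lower-coordinate end of CrebA, 2 regions below the gene went the other way. The wider of the pair, 3L:15533663-15534871, had a level of 661.5 in wing, 635 in leg, 259 in gland and 524 in EcR-RNAi wing, and was higher in wing than gland by 1.35 (SE 0.15, adjusted p = 7.54e-18) and in leg by 1.29 (SE 0.15, adjusted p = 4.08e-16) in the authors' deposited tables. The outer one, 3L:15532376-15532851, had 239 in wing, 306 in leg, 117 in gland and 149 in EcR-RNAi wing, higher in wing by 1.02 (SE 0.19, adjusted p = 3.53e-07) and in leg by 1.38 (SE 0.19, adjusted p = 3.42e-12) in the authors' deposited tables; centring on all regions ended the wing call. Between these regions and the gene, 3L:15535134-15535482 at the gene end had 126 in wing, 125 in leg, 106 in gland and 111 in EcR-RNAi wing; the authors' deposited tables gave a fold of 0.24 against gland in both discs (adjusted p = 0.324 in wing and 0.362 in leg). Of the regions within 3 kb below the gene, 2 were thus higher in the discs and 1 was called in neither comparison, while the gland-higher regions lay farther out or inside the body. Of the 5 other CrebA regions, 3L:15547909-15548087 was called against leg only, at 1.09 in gland over leg (SE 0.34, adjusted p = 0.0036) and 0.93 over wing (SE 0.32, adjusted p = 0.00831) in the authors' deposited tables, a call that centring on regions near gene ends removed. The rest had an absolute log2 fold between 0.06 and 0.78 in the authors' deposited tables of the gland comparisons and passed the fold threshold in neither. Among them, 3L:15542805-15544282 was higher in leg than gland by 0.58 (SE 0.16, adjusted p = 5.43e-04) in the authors' deposited table.

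Xbp1 (gene 44226, Dmel_CG9415, 2R, 21143545 to 21145750) had 2 regions in its body and 4 below it, in the body of Magi. Both regions farthest out were higher in gland. At 2R:21134866-21134999 the level was 11.3 in wing, 12.4 in leg, 45.2 in gland and 13.5 in EcR-RNAi wing, and the authors' deposited tables gave 2.004 over wing (SE 0.39, adjusted p = 4.90e-06) and 1.86 over leg (SE 0.40, adjusted p = 5.55e-05). At 2R:21134249-21134427 the level was 15.7 in wing, 14.1 in leg, 55.0 in gland and 12.7 in EcR-RNAi wing, with 1.81 over wing (SE 0.39, adjusted p = 2.56e-05) and 1.96 over leg (SE 0.40, adjusted p = 1.88e-05) in the authors' deposited tables. Both have few counts, below the lower quartile of all regions (70.8). The region 2R:21140120-21140974 was higher in both discs, at 289 in wing, 355 in leg, 132 in gland and 251 in EcR-RNAi wing. The authors' deposited tables gave 1.13 in wing over gland (SE 0.16, adjusted p = 4.02e-11) and 1.43 in leg (SE 0.16, adjusted p = 5.57e-17). In the table regions at Xbp1 itself the differences were smaller. The region at its end, 2R:21143490-21143756, had 56.0 in wing, 53.7 in leg, 91.4 in gland and 65.6 in EcR-RNAi wing, and the authors' deposited tables put it higher in gland by 0.71 over wing (SE 0.25, adjusted p = 0.00929) and 0.77 over leg (SE 0.26, adjusted p = 0.00738). The other region in the body, 2R:21144795-21145429, was higher in gland by 0.75 over wing (SE 0.22, adjusted p = 0.00123) and 0.50 over leg (SE 0.22, adjusted p = 0.0376) in the authors' deposited tables. With the region 2R:21141540-21142401, higher in gland by 0.56 over wing (adjusted p = 0.0048) and 0.70 over leg (adjusted p = 7.26e-04) in the authors' deposited tables, the Xbp1 regions that passed the adjusted p and missed the fold threshold numbered 3. The call of the disc-higher region against wing ended after centring on the table's median fold. No table region covered the gland peaks 2R:21143131-21143315 and 2R:21146024-21146193, with summits 353 and 368 bp from the ends of Xbp1. Their authors' fold enrichment was 5.28 and 4.13, and no wing, leg or EcR-RNAi wing peak overlapped them. In the Xbp1 body the gland list had 0 peaks, the wing list 4 and the leg list 4.

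**Figure D2:**
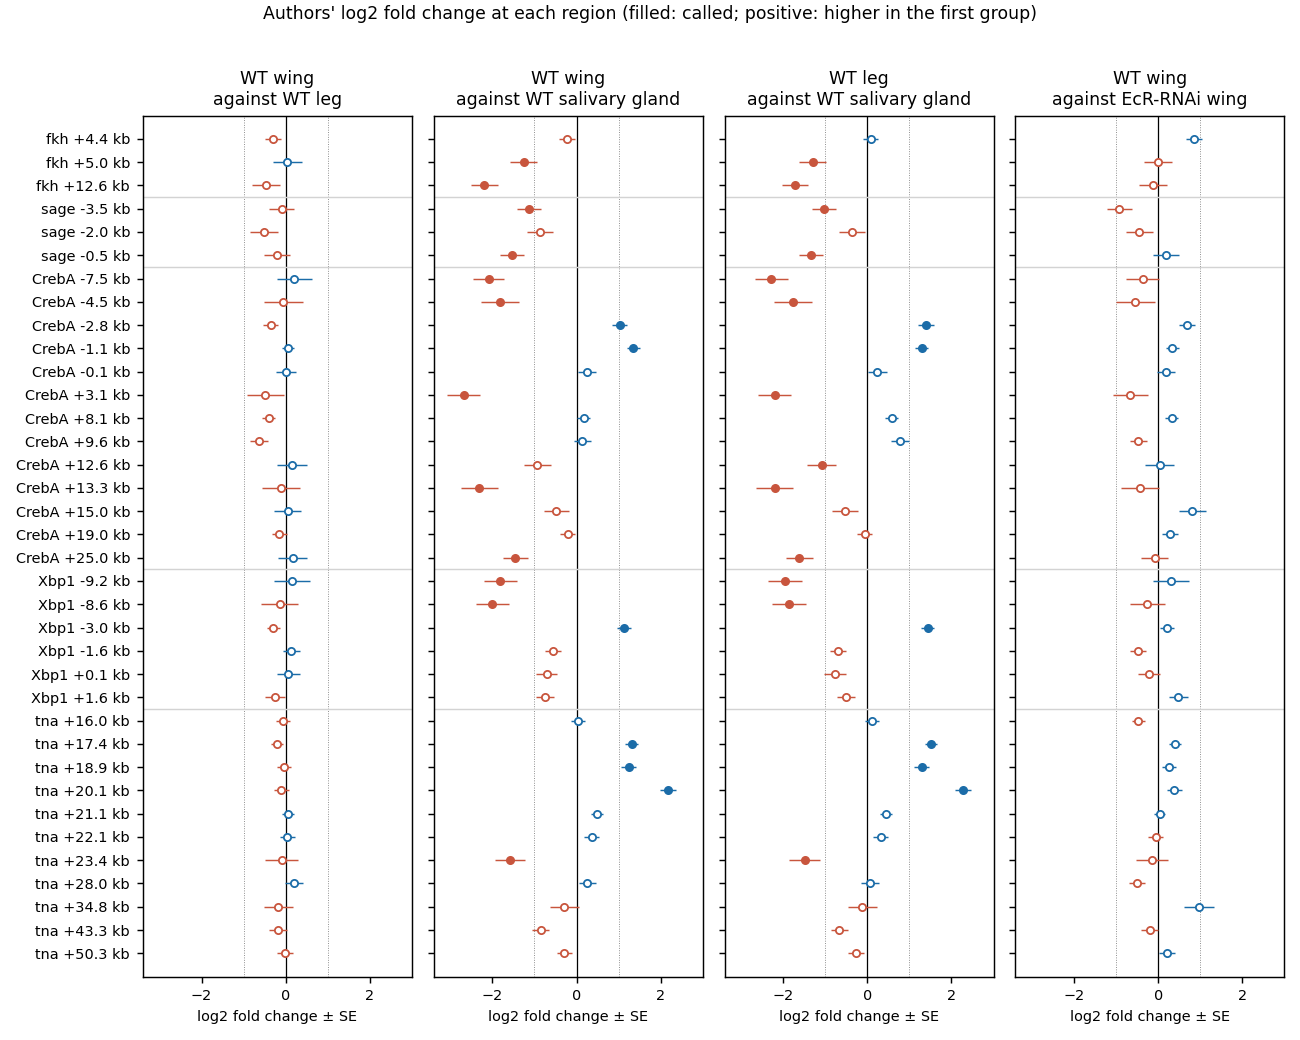
Log2 fold change with its SE for each of the 36 regions (rows, labelled by kb from the lower-coordinate end of the gene) in the authors' 4 deposited tables; filled points are called, positive values are higher in the first group, and dotted lines mark a log2 fold of 1 in either direction. The wing against gland folds run from -2.69 to 2.17, and no point is filled in the 2 comparisons between disc groups.

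tna (gene 39217, Dmel_CG7958, 3L, 10835528 to 10876496) is the longest of the genes, and its strongest regions were those of the discs. In the middle of its body 3 neighbouring regions were higher in both discs. 3L:10855284-10855937 had a level of 491 in wing, 528 in leg, 109 in gland and 377 in EcR-RNAi wing. Every disc group stood above gland there, and the authors' deposited tables gave 2.17 in wing over gland (SE 0.19, adjusted p = 3.56e-29) and 2.28 in leg (SE 0.19, adjusted p = 1.22e-31). Its neighbour 3L:10852253-10853594 had 826 in wing, 949 in leg, 334 in gland and 629 in EcR-RNAi wing, with 1.31 in wing over gland (SE 0.15, adjusted p = 3.73e-17) and 1.51 in leg (SE 0.15, adjusted p = 2.33e-22) in the authors' deposited tables. At 3L:10853885-10855049 the levels were 481, 498, 204 and 406 in the same order, and the authors' deposited tables gave 1.24 in wing (SE 0.17, adjusted p = 3.48e-12) and 1.29 in leg (SE 0.17, adjusted p = 6.93e-13). The wing peak over the first of these had an authors' fold enrichment of 10.8, above 99.8% of the wing list, and the leg peak 13.7, above 99.7% of the leg list; no gland peak overlapped that region.

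A single tna region was higher in gland. 3L:10858827-10858961, also in the body, had 18.1 in wing, 19.3 in leg, 54.6 in gland and 20.02 in EcR-RNAi wing, higher in gland by 1.59 over wing (SE 0.36, adjusted p = 5.15e-05) and 1.497 over leg (SE 0.37, adjusted p = 2.81e-04) in the authors' deposited tables. The region just before it, 3L:10857275-10858076, was high in every group, at 356 in wing, 347 in leg, 278 in gland and 371 in EcR-RNAi wing. Its fold in wing over gland of 0.36 (SE 0.18) had an adjusted p of 0.066 in the authors' deposited table. The other 6 tna regions had an absolute log2 fold of at most 0.85 in the authors' deposited tables of the gland comparisons. That largest value was at 3L:10878487-10879214, in CG6418, higher in gland than wing (SE 0.20, adjusted p = 7.53e-05). The other way, 3L:10856072-10857129 was higher in wing than gland by 0.48 (SE 0.14, adjusted p = 0.00141) in the authors' deposited tables. Its fold in leg over gland was 0.43 (SE 0.14, adjusted p = 0.00564).

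**Figure D3:**
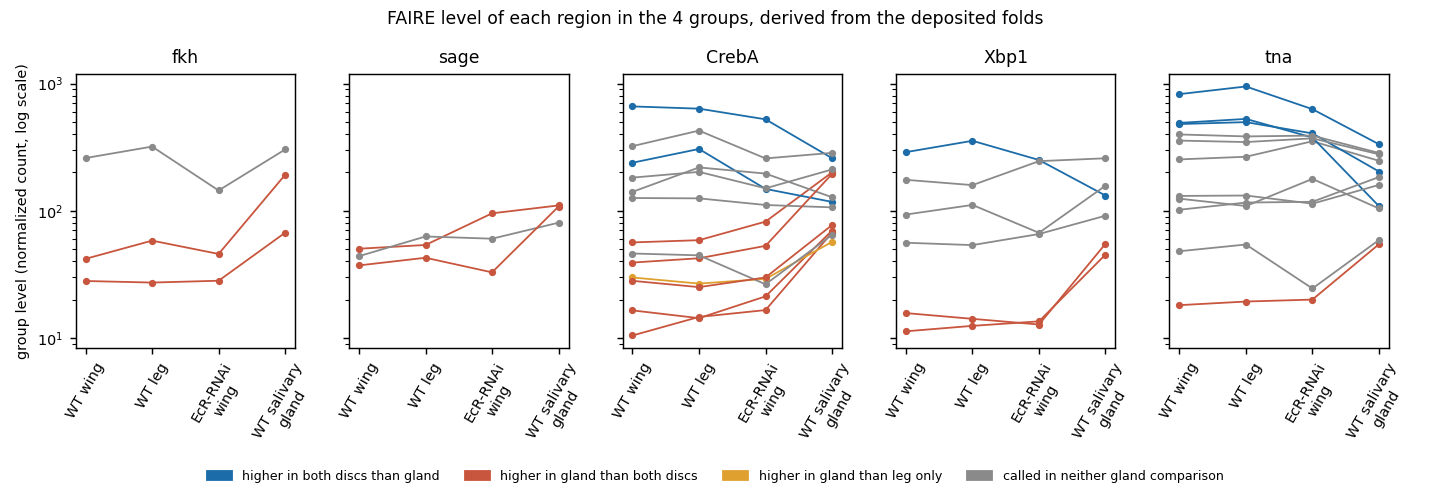
Derived level of each of the 36 regions (normalized count, log axis) in WT wing, WT leg, EcR-RNAi wing and salivary gland, 1 line per region, 1 panel per gene, coloured by class and without error bars. The 12 gland-higher regions have at most 56.4 in wing, and the 6 disc-higher ones at least 239; regions differ in width, so lines are compared between groups and not with each other.

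Gland-higher and disc-higher regions at these genes differed in size. The 12 gland-higher regions had a median width of 286 bp (134 to 772) and a median mean count of 38.9 (20.6 to 99.4). The 6 disc-higher ones had 1010 bp (476 to 1342) and 386 (203 to 685). The median count of the gland-higher regions thus lay below the lower quartile of all regions (70.8). Over all 13008 regions the same classes had medians of 267 bp and 42.1, and of 670 bp and 207, and the same contrast held in the whole table. The mean count is over all 8 libraries, most of them from discs. Low means in gland-higher regions and high means in disc-higher ones thus follow partly from the class. Of the 12, 3 lay in the body of the gene itself, 8 in that of another gene and 1 between genes. None of the 12 lay within 500 bp of an end of fkh, sage, CrebA, Xbp1 or tna, although 6 lay within 500 bp of some gene's end. This holds for table regions only, as gland peaks that they do not cover lay that near to ends of sage and Xbp1. The 3 regions at the ends of the 5 genes, those of fkh, CrebA and Xbp1 given above, were called in neither gland comparison. All 12 carried the authors' overlap mark for gland and for no other group, as did 96.3% of such regions in the table, although this mark differs from the deposited peak lists. A listed gland peak overlapped 11 of the 12, the exception being the CrebA region in AGO2. A leg peak overlapped 1 (the near sage region), an EcR-RNAi wing peak 1 (the far sage region) and a wing peak 0. Of all 13008 regions, a wing peak overlapped 11004, a leg peak 10789 and an EcR-RNAi wing peak 10641. The share among all gland-higher regions of the table is not given, so few disc peaks cannot be called particular to these genes. The peak lists were made on the same libraries that the folds compare, so these marks and overlaps are no separate support for the calls.

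**Figure D4:**
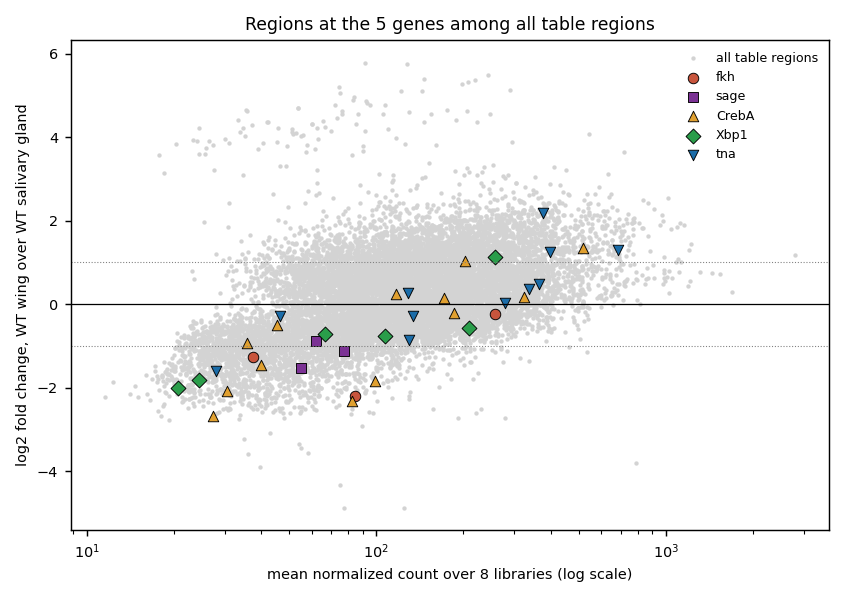
Log2 fold of wing over gland in the authors' deposited table (y axis, dotted lines at 1 in either direction) against the mean normalized count over all libraries (x axis, log scale), with all 13008 regions in grey and those at the 5 genes as coloured symbols. Regions of low count lie lower on the y axis over the whole table, and the gland-higher regions at the genes lie there, at counts of 20.6 to 99.4.

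The gland list named 63 peaks over the 5 genes together, the other lists 30 to 48. This order depended on the setting: at a −log10 q of at least 10 the lists held 18 in gland, 16 in wing, 16 in leg and 19 in EcR-RNAi wing, and in the gene bodies alone 24, 28, 26 and 16. The gland list had 4 at fkh, 9 at sage, 25 at CrebA, 10 at Xbp1 and 15 at tna. A wing or leg peak overlapped 23 of these 63 gland peaks (36.5%), against 8381 of all 16840 gland peaks (49.8%). At a reciprocal overlap of 50% these were 10 (15.9%) and 3493 (20.7%). By gene the overlapped ones were 1 of 4 at fkh, 4 of 9 at sage, 8 of 25 at CrebA, 3 of 10 at Xbp1 and 7 of 15 at tna. The lists were made on merged libraries and have no replicate check, and their depth is unknown, so a missing peak is not a missing signal. The tables covered the gland peaks in part, as 33 of the 63 overlapped no table region.

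Between wing and leg discs the log2 folds at the 36 regions were small, with leg over wing from -0.20 to 0.64. In the authors' deposited table of wing against leg, 0 of 31 tested regions were called in either direction, against 2.04 percent of all regions higher in wing and 2.21 percent higher in leg. At an unadjusted p under 0.05 there were 0 higher in wing and 2 higher in leg, with the share of all regions at that threshold not given. By adjusted p alone there was 1 higher in leg and 0 in wing (against 5.25 and 5.05 percent of all regions). That region, 3L:15544670-15545379 in CrebA, had 141 in wing and 219 in leg, 0.64 higher in leg (SE 0.21, adjusted p = 0.0306) in the authors' deposited table, and 128 in gland. It was higher in leg than gland by 0.78 (SE 0.21, adjusted p = 4.99e-04) in the authors' deposited table, with a fold of 0.14 in wing over gland (adjusted p = 0.557).

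The EcR-RNAi comparison set WT wing discs against discs with the EcR hairpin, which also differ in driver, GFP and yw background. In the authors' deposited table, 0 of 32 tested regions were called in either direction, against 1.24 percent of all regions higher in WT wing and 0.789 percent higher in EcR-RNAi wing. At an unadjusted p under 0.05 there were 9 higher in WT wing and 5 in EcR-RNAi wing. The share of all regions at that threshold is not given, so these counts show no response of the genes. By adjusted p alone there were 3 in each direction (9.38% each, against 10.4 and 5.38 percent of all regions). Each of the 6 missed the fold threshold of 1. With folds centred over all regions, 1 was called, the far sage region, higher in EcR-RNAi wing. The share of all regions called after that centring is not given. The region at the fkh end, at 260 in WT wing and 144 in EcR-RNAi wing, was 0.85 higher in WT wing (SE 0.19, adjusted p = 7.23e-04) in the authors' deposited table. Below CrebA, 3L:15532376-15532851 was 0.68 higher in WT wing (SE 0.19, adjusted p = 0.00649), and in tna 3L:10870201-10870473 was 0.97 higher (SE 0.36, adjusted p = 0.0497) in the authors' deposited table. Higher in EcR-RNAi wing were the far sage region by 0.92 (SE 0.29, adjusted p = 0.0176), and in tna 3L:10851172-10851972 by 0.47 (SE 0.16, adjusted p = 0.0313) and 3L:10863246-10863771 by 0.52 (SE 0.19, adjusted p = 0.0497), in the authors' deposited table. No Xbp1 region passed the adjusted p. A peak of EcR-RNAi wing (authors' fold enrichment 3.48) and a gland peak (5.46) overlapped the far sage region, where wing and leg had no peak that overlapped the gland one. At EcR itself, the gene the hairpin targets, 2 of 19 regions in the body were called in the authors' deposited table. Of these, 1 was 1.01 higher in WT wing and 1 was 2.24 higher in EcR-RNAi wing. Open chromatin does not measure the knockdown. Whether DNA of the hairpin transgene adds reads at EcR was not tested.

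Other genes of the pathways were counted by the same rule of 10 kb. The 28 secretory pathway genes (such as Sec61alpha, Sar1, Sec23 and KdelR), many known to respond to CrebA, had 23 of 124 regions higher in gland than wing (18.5%, against 12.7 percent of all regions) and 7 higher in wing (5.65%, against 21.1 percent), in the authors' deposited table. Against leg they were 22 (17.7%, against 13.3 percent) and 6 (4.84%, against 22.6 percent). The largest were at ergic53, a cargo receptor of the early secretory pathway, at 2.45 higher in gland than wing (SE 0.40, adjusted p = 3.00e-08), and at Gp210, a nuclear pore protein gene, at 2.11 higher in wing (SE 0.18, adjusted p = 1.43e-30) in the authors' deposited table. The 17 genes of the unfolded protein response (such as Ire1, PEK, Atf6 and Hsc70-3) had 21 of 80 higher in gland than wing (26.25%) and 3 higher in wing (3.75%), and 22 (27.5%) and 2 (2.5%) against leg. Among them were Pdi, a protein disulfide isomerase gene, at 2.22 higher in gland than wing (SE 0.39, adjusted p = 3.19e-07), and Ero1L, an oxidase of the endoplasmic reticulum, at 1.73 higher in wing (SE 0.22, adjusted p = 1.51e-14) in the authors' deposited table. The median log2 fold of gland over wing was 0.47 and 0.52 over these lists, against -0.18 over all regions, in the authors' deposited table. It was 0.31 over all regions within 500 bp of a gene end.

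The 21 genes of gland specification and tube formation (such as Scr, exd, hkb, trh and the Sgs glue genes) had 44 of 119 regions higher in wing (37.0%, against 21.1 percent of all regions) and 11 higher in gland (9.24%, against 12.7 percent). Against leg these were 38 (31.9%, against 22.6 percent) and 13 (10.9%, against 13.3 percent). The homeobox gene hth, which also patterns the discs, held the largest disc-higher fold, 2.69 in wing over gland (SE 0.16, adjusted p = 9.16e-63), and the glue gene Sgs4 the largest gland-higher one, 2.263 over wing (SE 0.38, adjusted p = 5.62e-08), in the authors' deposited table. The 10 genes of the Brahma complex and its partners (such as brm, mor and Snr1) had 5 of 60 higher in wing (8.33%) and 9 higher in gland (15%, near the share of all regions), and 4 (6.67%) and 9 (15%) against leg. In osa, a Brahma subunit gene, a region was 2.31 higher in gland than wing (SE 0.38, adjusted p = 2.39e-08), and in Bap170, another subunit gene, a region was 1.62 higher in wing (SE 0.24, adjusted p = 7.30e-11) in the authors' deposited table. Of 179 regions at early ecdysone genes, 32 were higher in wing (17.9%) and 24 in gland (13.4%), and 33 (18.4%) and 26 (14.5%) against leg, shares near those of all regions. Among them was EcR at 2.63 in wing over gland (SE 0.20, adjusted p = 2.09e-38) and the nuclear receptor gene Eip78C at 2.52 in gland over wing (SE 0.38, adjusted p = 1.68e-09) in the authors' deposited table. In EcR-RNAi wing these lists held 1, 1, 1, 1 and 3 regions higher in WT wing (gland specification, secretory, unfolded protein, Brahma and ecdysone genes), and 0, 1, 0, 0 and 6 higher in EcR-RNAi wing. For the ecdysone genes this was 1.68% and 3.35%, against 1.24 and 0.789 percent of all regions, and in the other lists it was 1 region at most in either direction. The largest of the 6 was at EcR, the gene the hairpin targets, at 2.24 (SE 0.23, adjusted p = 1.86e-19) in the authors' deposited table. Whether DNA of the hairpin transgene adds reads at that region was not tested.

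The tissue labels were set against marker genes by the same rule. Of all tested regions, 12.7 percent were called higher in gland than wing and 21.1 percent higher in wing. Against leg, 13.3 percent were higher in gland and 22.6 percent higher in leg. Between the discs, 2.04 percent were higher in wing and 2.21 percent higher in leg. Regions at the salivary gland markers (glue and related genes) were higher in gland than wing in 7 of 14 cases and than leg in 9, with 1 higher in leg; their summed level was 1121 in gland, 810 in wing and 831 in leg. Wing markers had 10 of 45 regions higher in wing than leg and 3 higher in leg, and leg markers had 21 of 55 higher in leg and 2 higher in wing. Fat body, which adheres to the gland, had a region at 5 of its 7 markers, and 3 of 20 regions were higher in gland than wing and 2 higher in wing. Its summed level was 2749 in gland, 2811 in wing and 3458 in leg, and its median level over regions 140 in gland, 116 in wing and 111 in leg. In the leg comparison, 4 of the fat body calls favoured leg and 2 favoured gland. A region at the fat body gene Lsp1alpha was 4.88 higher in gland than wing (SE 0.41) in the authors' deposited tables. The same region was 5.23 higher in EcR-RNAi than in WT wing (SE 0.41), the only fat body call in that direction. Fat body calls toward WT wing numbered 2, the larger at Fbp2 by 1.15 (SE 0.22, adjusted p = 3.21e-05) in the authors' deposited table. Regions at tracheal markers were higher in wing than gland in 14 of 24 cases and in gland in 0, and those of muscle in 13 of 27 and 2, with summed levels in wing and gland of 4787 and 1840 for trachea and 4959 and 2783 for muscle. Only 2 of 5 muscle markers had a region. Haemocyte markers with a region were 2 of 4, and 2 of 4 such regions were higher in wing than gland and 1 in gland. The part of other cell types in the disc-higher regions of CrebA, Xbp1 and tna was not tested.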

How the data were processed

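FAIRE-seq libraries of 4 groups were used as deposited. Per the submitters' processing notes, the authors used MACS2 2.1.2, bedtools 2.26, Bowtie2 2.3.4.1, Picard 2.2.4, SAMtools 1.9, DESeq2 and R 3.5.2, on dm6; for their order and settings the sources used here give nothing. The authors deposited 1 peak list per group, on merged libraries, with a score, a fold enrichment (ratio over local background) and a −log10 q value. The authors deposited 4 comparison tables over 13008 regions with a mean normalized count (a signal over all libraries), a log2 fold change, its SE, and p-values before and after adjustment. Fold over SE was 0.918 to 1.12 times the deposited statistic at these regions, so folds may be moderated. Table starts may lie 1 base early.

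No count per library exists in them, so nothing was refitted and depth is unknown. Group levels were derived from mean count and folds, which close across the 3 tissue tables within 1e-09. Missing adjusted p-values (5 regions in wing against leg, 4 in wing against EcR-RNAi wing) stayed out of the tested counts. Genes came from RefSeq dm6, without strand or exons, so exonic or intronic position is not given. All called regions at the 5 genes are named; of other lists, regions with the largest called folds. The genes and lists were chosen with earlier results of these data known. A recomputation of adjusted p from fold and SE was tested on simulated folds, and the assignment rule on made-up intervals. This test does not cover calls by the deposited adjusted p. The work was done in Python 3.11.15 with pandas 2.3.3, NumPy 2.4.6 and matplotlib 3.10.9. Alternatives changed the threshold, the assignment rule, the centring of folds and the peak cutoffs.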

Additional observations from a re-analysis of the deposited data

How the results depend on the processing

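No paired analysis was possible because the tables hold no value per library, and for the same reason no library could be left out. Counts depended most on how regions were assigned to the genes. With the 17 regions in the gene body only, 3 were higher in wing than gland and 3 higher in gland, and 3 higher in leg and 4 in gland against leg; with the 11 regions assigned to the nearest gene end, the counts were 1 and 2, and 1 and 3. Among the 23 regions not in another gene's body, 5 were higher in wing and 4 in gland, and 5 in leg and 5 in gland against leg. This alternative and the one on high SEs were chosen after seeing the data. Without a fold threshold, 1 region was higher in leg than wing, and 3 in WT wing and 3 in EcR-RNAi wing. With folds centred on all regions (median 0.08), 1 was higher in EcR-RNAi wing, the far sage region. Peaks at a −log10 q of at least 10 were 16 in wing, 16 in leg, 18 in gland and 19 in EcR-RNAi wing; by fold enrichment above each list's median 24, 26 and 32 in wing, leg and gland; in the gene body 28, 26, 24 and 16. Gland peaks shared with a disc at 50% reciprocal overlap were 10. Centring on regions near gene ends moves the gland comparisons by 0.31 toward the disc (log2), and centring on all regions by 0.18 and 0.17 toward gland; counts against gland moved by at most 1.5 times under either, and without the high SEs. Over the single regions, 67 values kept direction and call, 7 lost the call and 0 reversed. As disc over gland, the lost ones against wing were -0.95 at fkh, -0.82 at sage, 0.85 at CrebA and 0.96 at Xbp1, and against leg -0.99 at fkh, -0.72 at sage and -0.78 at CrebA.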

Other observations

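Regions elsewhere in the genome had nearly the same folds as those of the 5 genes. For each region called in a gland comparison, likeness was the Euclidean distance over the 3 log2 folds against wing (leg, gland and EcR-RNAi wing), among regions with a mean count within 2 times of its own. Over the 19 regions, the 2 nearest others lay at distances of 0.024 to 0.25, with a median of 0.064. The nearest to the far fkh region were those at lncRNA:CR44197 (0.23) and CG34313 (0.25), and to the near sage region those at REPTOR (0.02) and CG4297 (0.05). The nearest to the CrebA body region with the largest fold were at lncRNA:CR45328 (0.21) and how (0.21). For the Xbp1 region with the largest fold they were at lncRNA:CR45662 (0.09) and Pgant6 (0.10), and for the strongest tna region at ft (0.04) and CG43658 (0.08). These distances are descriptions, with up to 7984 regions to choose from.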
